A study of Rattus norvegicus with 24 samples.

Results

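PPARA targets and the enzymes of fatty acid oxidation were followed as 1 module of 34 genes, among 22093 genes measured in rat liver. The members were the probe sets whose only annotated gene symbol was on a list of the receptor PPARA, its classic liver targets and the enzymes and carriers of fatty acid oxidation. For each gene the probe set with the highest mean over all 24 arrays was used, without regard to group. All 34 members had such a probe set, and all 34 lay above the filter on low values on every array, so none was lost. Each of 24 Affymetrix arrays carried the liver RNA of 1 rat, and there were 4 rats in each of 6 groups. The rats were RccHan Wistar males of 7 to 8 weeks. Metformin rats received 800 mg/kg of metformin, a biguanide that lowers blood glucose, by daily gavage for 1, 3 or 14 days. Control rats received vehicle (10 parts ethanol, 40 parts Kolliphor HS 15 and 50 parts tap water) for the same 1, 3 or 14 days, and the labels do not say in what the metformin was given. All groups shared strain, sex, standard chow and free access to food, so the data describe young males of 1 strain. Levels below are log2 of the deposited intensity of a gene's own probe set, listed for rats 1 to 4 by the labels' replicate number, and are not compared between genes.

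PPARA is a nuclear receptor that, bound to fatty acids and paired with RXR, switches on genes of fatty acid uptake, oxidation and ketone body formation in the fasting liver. Long-chain fatty acids enter mitochondria as carnitine esters made by CPT1A, which malonyl-CoA inhibits, and are turned back into CoA esters by CPT2. Inside, acyl-CoA dehydrogenases, hydratases, hydroxyacyl-CoA dehydrogenases and thiolases shorten the chain stepwise, and the electrons pass through the electron transfer flavoprotein to the respiratory chain. Peroxisomes shorten very long chains, and CYP4A enzymes oxidise the far end of the chain.

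Arrays of a group correlated at r of at least 0.989 across genes, and array medians lay between 5.73 and 5.84 (log2). In bulk liver, fewer cells of a type and less RNA per cell cannot be told apart. The tissue label was checked on 10 hepatocyte markers: the 9 with a probe set had summed intensities between 3620000 and 4010000 over all rats, with mean log2 levels such as 19.85 for Alb and 19.15 for Cps1. No marker of the 11 cell types listed passed the test in any within-day comparison. All 12 markers of Kupffer cells and macrophages lay below the controls on day 3 (median log2 change -0.49), with summed intensities of 12800 to 28700 in metformin rats and 18800 to 38800 in control rats. On day 14 all 12 again lay below the controls (median -0.19; sums 14500 to 20200 in metformin rats and 9810 to 25900 in control rats), as did all 10 markers of sinusoidal endothelium (median -0.23; sums 16800 to 29400 in metformin rats and 18600 to 32900 in control rats). On day 1, 11 of the 12 macrophage markers lay above the controls (median 0.16; sums 14500 to 32300 in metformin rats and 18700 to 27500 in control rats). The part of these shifts in the members' values was not tested.

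Promoter letters are shown because PPARA with RXR binds a direct repeat of AGGTCA with 1 base between the copies, and the members were chosen partly as its targets.
RefSeq promoters of the GRCr8 build, 250 bases before to 50 bases after the start of each gene, were found for 29 of the 34 members, all but Acadl, Acaa2, Decr1, Cyp4a1 and Vnn1.
The repeat, AGGTCA then any 1 base then AGGTCA, was searched on both strands with up to 2 mismatches among its 12 fixed letters. It was in 6 of the 29 windows and in 3.8% of 33469 promoters of that length.
The single copy AGGTCA, also on both strands and free to overlap the repeat, was in 7 of the 29 windows and in 16.2% of all promoters.
The 6 stretches that matched the repeat follow, read along the strand of the motif, with the whole match in capitals.
Fabp1: AGGCCATAGGTCA
Acadvl: AGGTCAGTGGTCA
Acot4: AGGTCAGAGGTCT
Crat: AGGACACCGGTCA
Etfa: AGGGCAAAGGTAA
Slc25a20: AGGTGAAAGGTCG

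Fabp1, Acadvl and Acot4 differed from the motif at 1 letter, and Crat, Etfa and Slc25a20 at 2.
In Fabp1 the match ran from base -77 to base -65 before the start, in Acot4 from base -13 to base -1, and in Acadvl from base -17 to base -5.
Of the 8 members called in any comparison below, none had a match to the repeat in this window, which says nothing of the rest of the gene.
Below, the Fabp1 window (chr4:104749090-104749389, plus strand) is set beside those of Cpt1a (chr1:209995910-209996209, plus strand), Ppara (chr7:118712357-118712656, plus strand) and Slc22a5 (chr10:38536023-38536322, minus strand), the 3 members whose metformin effect changed between day 1 and day 14.
Capitals mark the repeat, here on the strand of the gene.
Fabp1: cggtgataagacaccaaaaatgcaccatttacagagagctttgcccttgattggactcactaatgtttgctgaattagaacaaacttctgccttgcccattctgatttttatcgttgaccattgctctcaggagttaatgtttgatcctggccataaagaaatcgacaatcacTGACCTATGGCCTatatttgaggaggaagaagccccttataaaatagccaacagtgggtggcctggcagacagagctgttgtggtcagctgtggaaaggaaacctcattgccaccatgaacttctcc
Cpt1a: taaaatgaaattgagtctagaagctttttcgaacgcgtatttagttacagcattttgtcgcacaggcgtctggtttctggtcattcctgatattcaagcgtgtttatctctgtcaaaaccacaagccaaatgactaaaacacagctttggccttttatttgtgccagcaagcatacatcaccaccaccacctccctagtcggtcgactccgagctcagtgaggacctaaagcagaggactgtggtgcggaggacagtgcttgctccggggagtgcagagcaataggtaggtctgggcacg
Ppara: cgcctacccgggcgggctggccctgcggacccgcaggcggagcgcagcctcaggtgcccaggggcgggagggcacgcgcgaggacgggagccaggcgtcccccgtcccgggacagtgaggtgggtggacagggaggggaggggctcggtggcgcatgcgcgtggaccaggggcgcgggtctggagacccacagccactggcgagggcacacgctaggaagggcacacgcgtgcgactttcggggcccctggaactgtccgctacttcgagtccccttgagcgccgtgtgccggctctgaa
Slc22a5: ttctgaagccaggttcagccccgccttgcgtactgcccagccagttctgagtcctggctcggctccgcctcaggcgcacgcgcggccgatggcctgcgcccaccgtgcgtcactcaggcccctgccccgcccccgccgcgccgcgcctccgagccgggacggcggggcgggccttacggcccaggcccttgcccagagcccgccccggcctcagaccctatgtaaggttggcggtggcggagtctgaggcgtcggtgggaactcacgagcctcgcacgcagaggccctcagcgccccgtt

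On day 1 the module lay above the controls in most of its genes, but no single member passed the test. Of 34 members, 29 were higher in metformin livers, with a median log2 change of 0.33, beside 0.02 over all 19686 genes tested, of which 55.6% were higher. The limma test with Benjamini-Hochberg adjustment called 0 members at an adjusted p under 0.05, and 0.0152% of all genes. At an unadjusted p under 0.05, 12 of 34 members were higher and 0 lower, beside 1619 of the 19686 genes in both directions. In 9 members all 4 metformin rats lay above all 4 controls, namely Acot3, Acot2, Acot1, Ppara, Etfdh, Cpt1a, Eci1, Acot4 and Acads, where 3.46% of all genes were so placed in that direction. Without metformin rat 1 of day 1, the test called 3 members, Acot2, Acot3 and Slc22a5.

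On day 3 the shift of the module was smaller: 24 of 34 members were higher, with a median log2 change of 0.11, beside -0.03 over all genes, of which 42.7% were higher. No member was called (0.254% of all genes were), and at an unadjusted p under 0.05 there were 4 members higher and 0 lower, beside 2687 genes in both directions. All 4 metformin rats lay above all 4 controls in Hadhb, Crot, Acadm and Etfdh, where 3.68% of all genes were so placed.

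After 14 days 25 of 34 members were higher, with a median log2 change of 0.15, beside 0.01 over all genes, of which 52.7% were higher. Cpt1a alone was called, and it fell, while 3.29% of all genes were called, 2.07% as higher and 1.22% as lower. Without control rat 1 of day 14 the test called 0 members, and without control rat 3 it called Acadl, higher, beside Cpt1a. Unadjusted p under 0.05 was reached by 4 members that were higher and 2 that were lower, beside 1868 genes higher and 1447 lower. All 4 metformin rats lay above the controls in Eci1 (5.07% of all genes) and below them in Cpt1a and Slc22a5 (3.34% of all genes).

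The rats of a group did not carry the shift equally. Each rat's median over the 34 members, as a log2 difference from the mean of its own day's controls, was 0.076, 0.173, 0.401 and 0.496 in metformin rats on day 1, against 0.17, -0.031, -0.109 and -0.062 in controls. On day 3 the medians were 0.212, -0.007, -0.072 and 0.25 in metformin rats, against -0.042, -0.041, 0.091 and 0.003 in controls. On day 14 they were 0.306, 0.267, -0.062 and -0.055 in metformin rats, against -0.049, -0.061, 0.031 and -0.006 in controls. Rats 3 and 4 were the highest on day 1, rats 1 and 4 on day 3 and rats 1 and 2 on day 14. On day 1 metformin rat 1 (0.076) lay below control rat 1 (0.17), and metformin rat 2 (0.173) lay just above it. On days 3 and 14 the 2 metformin rats that were not the highest lay among or below the controls. The rats lived 2 or 3 to a cage, which cage held which rat is not stated, and the hour of necropsy is not given in the sources used here.

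**Figure D1:**
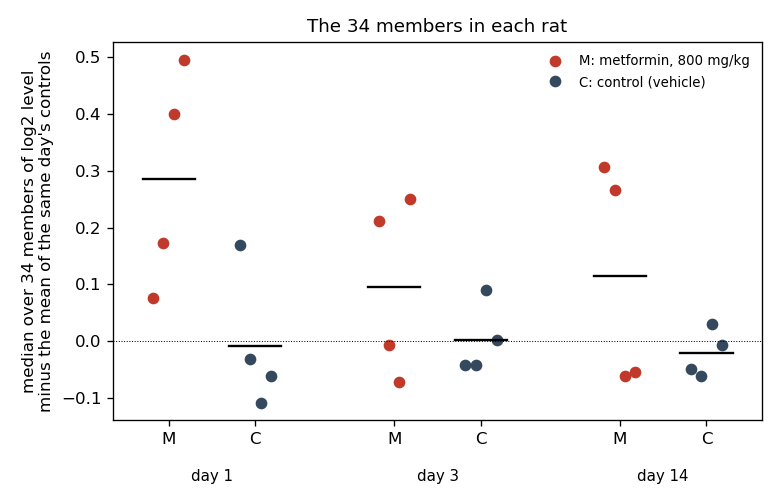
Median over the 34 members of each rat's log2 level minus the mean of the same day's controls (y axis), for metformin and control rats of days 1, 3 and 14; points are rats and bars group means. Metformin rats of day 1 span 0.076 to 0.496, and on day 14 rats at 0.306 and 0.267 stand apart from those at -0.062 and -0.055.

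**Figure D2:**
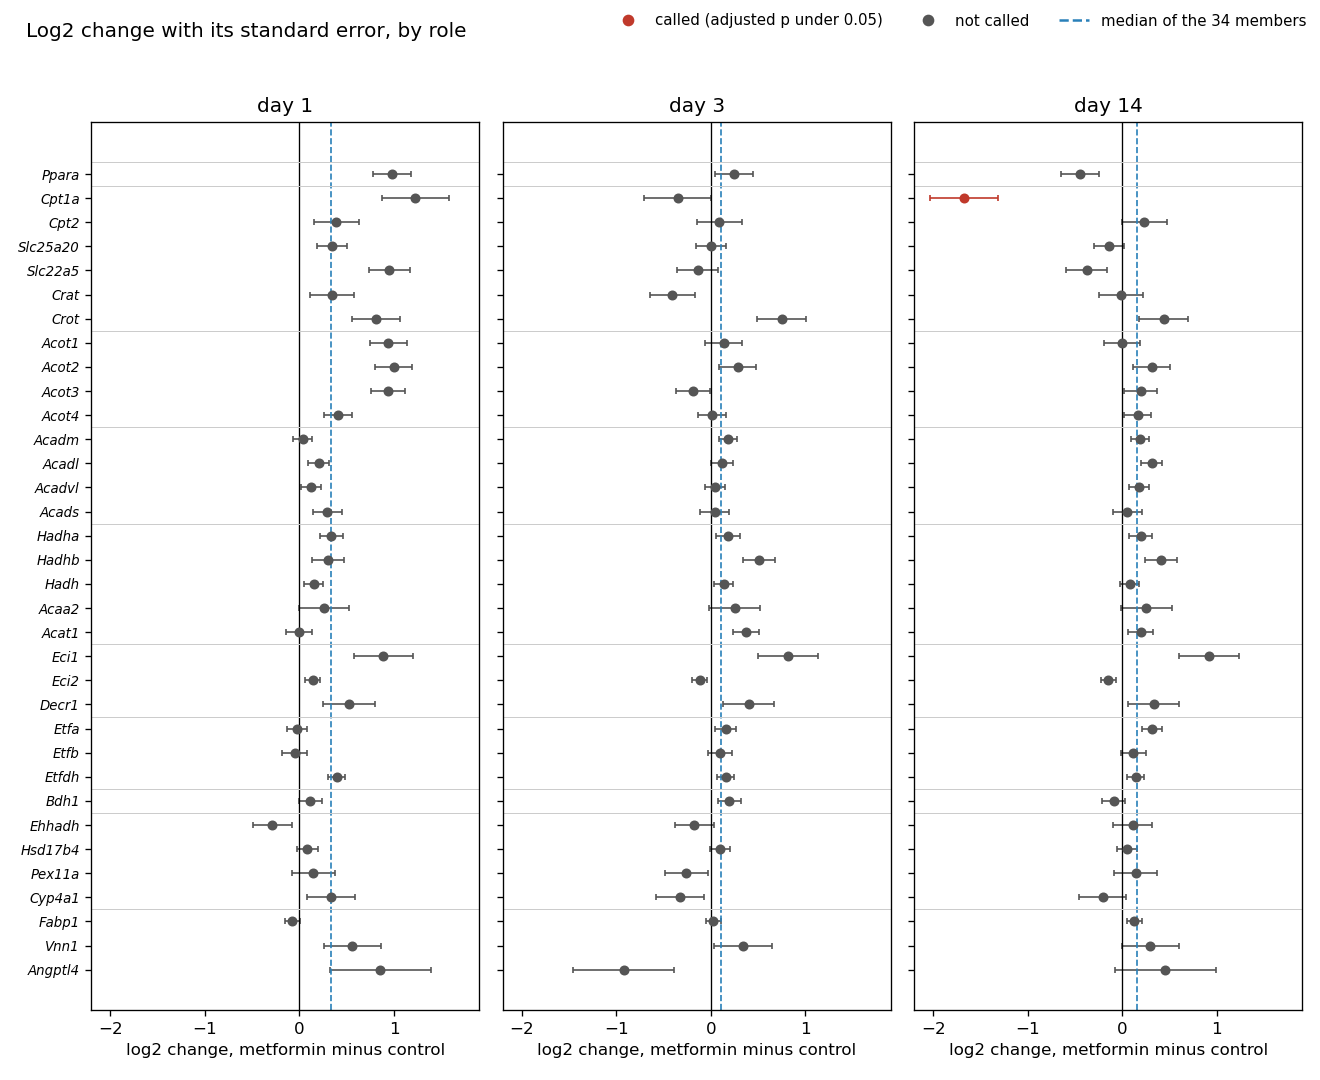
Log2 change of each member (metformin minus control, x axis) with its standard error, 1 panel per day, members grouped by role; red marks a call and the dashed line the median of the 34 members. The medians are 0.33, 0.11 and 0.15 on days 1, 3 and 14, and Cpt1a at -1.67 on day 14 is the only call.

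The metformin effect on Ppara, the receptor itself, differed between day 1 and day 14. Ppara log2 levels on day 1 were 10.31, 10.51, 10.98 and 10.90 in metformin rats, against 10.07, 9.64, 9.63 and 9.43 in control rats. On day 3, Ppara had log2 levels of 10.50, 9.76, 10.07 and 9.96 in metformin rats, against 10.00, 9.78, 9.57 and 9.95 in control rats. Day 14 gave Ppara log2 levels of 9.36, 8.50, 9.21 and 9.01 in metformin rats, against 9.93, 9.29, 9.24 and 9.39 in control rats. Metformin rats were all above the controls on day 1, overlapped them on day 3, and on day 14 had 3 of 4 rats below every control. The log2 change was 0.98 ± 0.20 (SE; adjusted p = 0.119) on day 1, 0.25 ± 0.20 (SE; adjusted p = 0.598) on day 3 and -0.44 ± 0.20 (SE; adjusted p = 0.26) on day 14, so no single day passed. The effect on day 14 minus that on day 1 was -1.42 ± 0.28 (SE; adjusted p = 0.0154), a fall that stayed called without any 1 of the 24 rats (adjusted p at most 0.0384). With every probe set of the table tested, its adjusted p was 0.0534.

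Cpt1a, which makes the carnitine esters that enter mitochondria and is a PPARA target, had the largest change of effect among the 34 members between day 1 and day 14. Cpt1a log2 levels on day 1 were 12.15, 12.19, 13.78 and 13.13 in metformin rats, against 11.80, 11.30, 11.68 and 11.56 in control rats. On day 3, Cpt1a had log2 levels of 12.06, 11.34, 11.65 and 11.41 in metformin rats, against 11.96, 12.35, 12.26 and 11.29 in control rats. Day 14 gave Cpt1a log2 levels of 10.46, 8.40, 9.79 and 9.45 in metformin rats, against 11.48, 11.13, 10.87 and 11.32 in control rats. All metformin rats were above the controls on day 1 and below them on day 14, and on day 3 they lay within the control range. On day 1 the log2 change was 1.23 ± 0.36 (SE; adjusted p = 0.267), which did not pass, and on day 3 it was -0.35 ± 0.36 (SE; adjusted p = 0.677). On day 14 Cpt1a fell 3.19-fold, with means of 9.52 ± 0.86 in metformin livers and 11.20 ± 0.26 in control livers (log2, SD, n = 4 each). That log2 change was -1.67 ± 0.36 (SE; adjusted p = 0.0133), and without control rat 1 of day 14 it was -1.58 (adjusted p = 0.0604). With only the 8 arrays of day 14 in the fit, the adjusted p was 0.0912. Between the days, the effect on day 14 minus that on day 1 was -2.90 ± 0.51 (SE; adjusted p = 0.00667) and stayed called without any 1 of the 24 rats (adjusted p at most 0.0197).

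**Figure D3:**
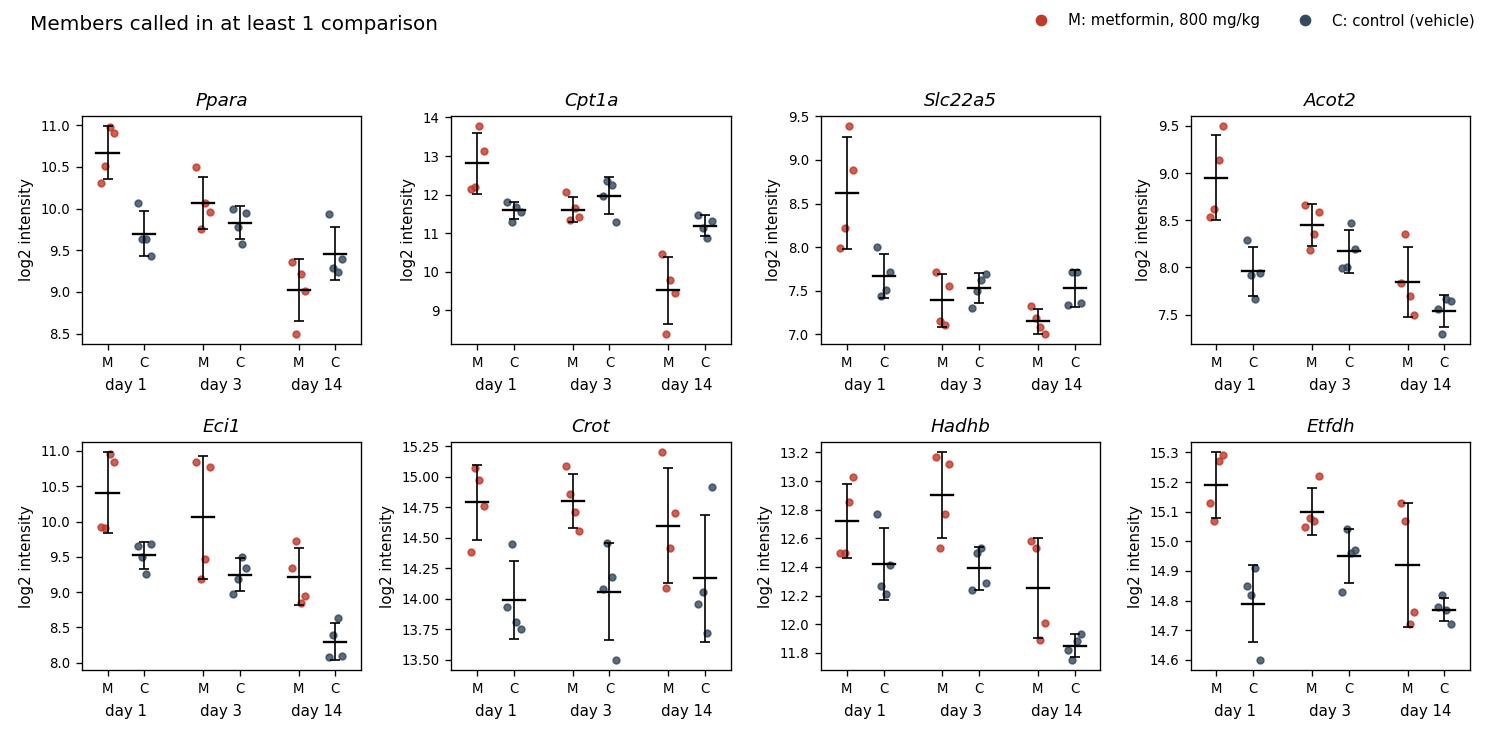
Log2 intensity (y axis) of the 8 members called in at least 1 comparison, by day and group (x axis; M metformin, C control); points are rats, bars mean and SD of 4. Cpt1a in metformin rats lies at 12.15 to 13.78 on day 1 and at 8.40 to 10.46 on day 14, against 11.30 to 11.80 and 10.87 to 11.48 in controls.

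Slc22a5, the sodium-coupled transporter that brings carnitine into cells, was the third member whose metformin effect differed between day 1 and day 14. Slc22a5 log2 levels on day 1 were 7.99, 8.22, 9.39 and 8.88 in metformin rats, against 8.00, 7.44, 7.51 and 7.72 in control rats. On day 3, Slc22a5 had log2 levels of 7.72, 7.15, 7.11 and 7.56 in metformin rats, against 7.30, 7.50, 7.62 and 7.69 in control rats. Day 14 gave Slc22a5 log2 levels of 7.33, 7.19, 7.08 and 7.01 in metformin rats, against 7.34, 7.72, 7.71 and 7.36 in control rats. Metformin rats had 3 of 4 values above every control on day 1, and the groups overlapped on day 3. On day 14 all 4 lay below the controls, but the nearest values were 7.33 in a metformin rat and 7.34 in a control rat. Log2 changes were 0.95 ± 0.22 (SE; adjusted p = 0.154) on day 1, -0.14 ± 0.22 (SE; adjusted p = 0.795) on day 3 and -0.38 ± 0.22 (SE; adjusted p = 0.412) on day 14. The effect on day 14 minus that on day 1 was -1.33 ± 0.31 (SE; adjusted p = 0.0305). This call was lost when any 1 of 7 rats was left out, namely control rats 2 and 3 and metformin rats 3 and 4 of day 1, control rat 2 and metformin rats 3 and 4 of day 14, with adjusted p of 0.0540 to 0.0701. It was also lost with the replicate number as a block (adjusted p = 0.0509) and with every probe set of the table tested (adjusted p = 0.0906). The gene's other probe set differed by -0.87 ± 0.21 in the same comparison (SE; adjusted p = 0.112 over every probe set), and by 0.60 on day 1 and -0.27 on day 14.

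Crot and Crat move acyl groups between CoA and carnitine, Crot for medium chains in peroxisomes and Crat for short chains. Crot log2 levels on day 1 were 14.38, 15.07, 14.97 and 14.76 in metformin rats, against 13.93, 14.45, 13.81 and 13.75 in control rats. On day 3, Crot had log2 levels of 15.09, 14.86, 14.71 and 14.56 in metformin rats, against 14.08, 14.46, 14.18 and 13.50 in control rats. Day 14 gave Crot log2 levels of 15.20, 14.09, 14.42 and 14.70 in metformin rats, against 13.96, 14.06, 13.72 and 14.92 in control rats. Metformin rats had 3 of 4 values above every control on day 1, all 4 on day 3 and 1 of 4 on day 14. Averaged over the 3 days Crot rose 1.59-fold (log2 change 0.67 ± 0.15 (SE; adjusted p = 0.0159)). Crat log2 levels on day 1 were 7.61, 7.52, 8.34 and 8.43 in metformin rats, against 7.95, 7.29, 7.26 and 8.03 in control rats. On day 3, Crat had log2 levels of 7.72, 7.18, 7.70 and 7.53 in metformin rats, against 7.93, 7.71, 8.09 and 8.04 in control rats. Day 14 gave Crat log2 levels of 7.25, 7.31, 6.75 and 6.53 in metformin rats, against 7.13, 7.39, 6.56 and 6.84 in control rats. Crat overlapped the controls on all 3 days, with 2 metformin rats above every control on day 1 and 3 below every control on day 3. Its log2 changes were 0.34, -0.41 and -0.02 on days 1, 3 and 14 (adjusted p 0.813, 0.45 and 0.986), and none passed.

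Cpt2, which turns carnitine esters back into CoA esters inside mitochondria, was not called on any day. Cpt2 log2 levels on day 1 were 11.80, 11.69, 12.66 and 12.44 in metformin rats, against 12.25, 11.59, 11.66 and 11.53 in control rats. On day 3, Cpt2 had log2 levels of 11.93, 11.79, 11.73 and 11.98 in metformin rats, against 11.52, 11.53, 11.76 and 12.26 in control rats. Day 14 gave Cpt2 log2 levels of 11.84, 11.98, 11.19 and 11.06 in metformin rats, against 11.22, 11.69, 11.36 and 10.88 in control rats. Metformin rats 3 and 4 on day 1 and rats 1 and 2 on day 14 lay above every control, and the other metformin rats overlapped the controls. Log2 changes were 0.39, 0.09 and 0.23 on days 1, 3 and 14 (adjusted p 0.765, 0.888 and 0.708). Slc25a20, the carrier that exchanges carnitine esters across the inner membrane, differed by 0.34, -0.00 and -0.15. Of the 6 carnitine genes, 6 lay above the controls on day 1 (median log2 change 0.60), 2 on day 3 (-0.07) and 2 on day 14 (-0.08).

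The 4 acyl-CoA thioesterases, which release free fatty acids from CoA esters, lay highest against controls on day 1, with a median log2 change of 0.94. In mice Acot1 acts in the cytosol, Acot2 in mitochondria and Acot3 and Acot4 in peroxisomes. Their genes lie in 1 cluster on rat chromosome 6, in the order Acot2, Acot1, Acot4 and Acot3 with the predicted gene Rpl23al8 between, and as close relatives they may share probe sequence, which was not analysed here. Acot2 log2 levels on day 1 were 8.54, 8.62, 9.14 and 9.50 in metformin rats, against 8.29, 7.92, 7.67 and 7.94 in control rats. On day 3, Acot2 had log2 levels of 8.66, 8.19, 8.35 and 8.59 in metformin rats, against 7.99, 8.01, 8.47 and 8.20 in control rats. Day 14 gave Acot2 log2 levels of 7.84, 8.36, 7.70 and 7.50 in metformin rats, against 7.56, 7.30, 7.67 and 7.64 in control rats. Metformin rats were all above the controls on day 1, with 2 of 4 above every control on day 3 and 3 of 4 on day 14. Acot2 differed by 1.00 ± 0.20 (SE; adjusted p = 0.119) on day 1, and averaged over the 3 days it rose 1.44-fold (log2 change 0.53 ± 0.11 (SE; adjusted p = 0.0138)).

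Acot3 log2 levels on day 1 were 9.23, 9.25, 9.89 and 10.22 in metformin rats, against 8.98, 8.71, 8.51 and 8.65 in control rats. On day 3, Acot3 had log2 levels of 8.61, 8.80, 8.43 and 8.14 in metformin rats, against 8.47, 8.67, 8.90 and 8.70 in control rats. Day 14 gave Acot3 log2 levels of 8.35, 8.76, 8.52 and 8.57 in metformin rats, against 8.40, 8.27, 8.35 and 8.40 in control rats. Acot3 was above the controls in every metformin rat on day 1, had 2 rats below every control on day 3 and 3 rats above every control on day 14. Its log2 change of 0.94 ± 0.18 (SE; adjusted p = 0.112) on day 1 had the smallest p of the module that day. Acot1 log2 levels on day 1 were 6.07, 6.14, 6.44 and 6.85 in metformin rats, against 5.57, 5.15, 5.59 and 5.42 in control rats. On day 3, Acot1 had log2 levels of 5.81, 5.54, 5.45 and 6.01 in metformin rats, against 5.39, 5.29, 5.96 and 5.64 in control rats. Day 14 gave Acot1 log2 levels of 4.98, 5.65, 5.07 and 4.90 in metformin rats, against 4.78, 5.17, 5.34 and 5.33 in control rats. On days 3 and 14 Acot1 overlapped the controls, and on day 1 no rat did. Acot1 differed by 0.94 ± 0.19 (SE; adjusted p = 0.119) on day 1, 0.14 on day 3 and -0.01 on day 14. Its signal was low, with a mean of 5.56 over all arrays, below the array medians of 5.73 to 5.84. Acot4 differed by 0.41, 0.01 and 0.16 on days 1, 3 and 14, with the groups apart on day 1. None of the 4 was called on a single day, and after day 1 their medians were 0.07 on day 3 and 0.18 on day 14.

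The 4 acyl-CoA dehydrogenases, which take the first step of each round for different chain lengths, were above the controls on all 3 days by small amounts, with median log2 changes of 0.16, 0.08 and 0.18. Acadm acts on medium chains and Acadl on long chains. Acadm log2 levels on day 1 were 15.62, 15.86, 15.73 and 15.75 in metformin rats, against 15.90, 15.78, 15.59 and 15.55 in control rats. On day 3, Acadm had log2 levels of 16, 15.88, 15.94 and 16.07 in metformin rats, against 15.83, 15.73, 15.80 and 15.80 in control rats. Day 14 gave Acadm log2 levels of 16.08, 15.87, 15.55 and 15.63 in metformin rats, against 15.50, 15.67, 15.57 and 15.63 in control rats. Acadm lay within the control range on day 1, above it in every rat on day 3, and on day 14 rats 1 and 2 alone were above every control. Acadl log2 levels on day 1 were 15.35, 15.60, 15.65 and 15.63 in metformin rats, against 15.47, 15.18, 15.27 and 15.49 in control rats. On day 3, Acadl had log2 levels of 15.57, 15.47, 15.74 and 15.53 in metformin rats, against 15.59, 15.36, 15.46 and 15.42 in control rats. Day 14 gave Acadl log2 levels of 15.28, 15.22, 15.34 and 15.56 in metformin rats, against 14.97, 14.96, 15.42 and 14.81 in control rats. For Acadl 3 metformin rats exceeded every control on day 1 and 1 rat did so on day 3 and on day 14, when control rat 3 stood among the metformin rats. On day 14 the log2 change was 0.31 ± 0.11 (SE; adjusted p = 0.151) for Acadl and 0.19 ± 0.10 (SE; adjusted p = 0.348) for Acadm. Without control rat 3 of day 14, Acadl was called (adjusted p = 0.0213). Acadvl (very long chains) and Acads (short chains) differed by 0.05 to 0.17 and by 0.04 to 0.29 over the 3 days, with no call.

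Hadha and Hadhb encode the 2 kinds of subunit of the trifunctional protein, which carries out the later steps for long chains, and Hadhb rose when the 3 days were averaged.
Their RefSeq starts lie 301 bases apart, head to head, so the Hadha window shown here (chr6:31907551-31907850, plus strand) overlaps that of Hadhb.
Hadha: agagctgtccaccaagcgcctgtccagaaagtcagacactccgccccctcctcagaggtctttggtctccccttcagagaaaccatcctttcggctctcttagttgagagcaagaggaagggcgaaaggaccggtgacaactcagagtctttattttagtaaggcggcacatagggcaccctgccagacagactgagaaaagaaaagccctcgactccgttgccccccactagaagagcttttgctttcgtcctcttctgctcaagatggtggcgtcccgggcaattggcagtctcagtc

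No match to the repeat lies in this stretch, so it carries no capitals. Hadhb log2 levels on day 1 were 12.50, 12.50, 12.85 and 13.03 in metformin rats, against 12.77, 12.27, 12.21 and 12.41 in control rats. On day 3, Hadhb had log2 levels of 13.17, 12.53, 12.77 and 13.12 in metformin rats, against 12.24, 12.50, 12.53 and 12.29 in control rats. Day 14 gave Hadhb log2 levels of 12.58, 12.53, 11.89 and 12.01 in metformin rats, against 11.82, 11.75, 11.88 and 11.93 in control rats. Metformin rats exceeded every control in 2 of 4 on day 1, in 4 of 4 on day 3, where the nearest values both round to 12.53, and in 3 of 4 on day 14. Averaged over the days, Hadhb rose 1.32-fold (log2 change 0.41 ± 0.10 (SE; adjusted p = 0.0229)), and Hadha differed by 0.24 ± 0.07 (SE; adjusted p = 0.0743) without passing. Acat1 log2 levels on day 1 were 14.74, 14.83, 14.87 and 15.28 in metformin rats, against 15.17, 14.93, 15.01 and 14.62 in control rats. On day 3, Acat1 had log2 levels of 15.49, 15.23, 15.62 and 15.76 in metformin rats, against 15.14, 15.31, 15.15 and 15.03 in control rats. Day 14 gave Acat1 log2 levels of 15.18, 14.98, 14.73 and 14.77 in metformin rats, against 14.73, 14.64, 14.61 and 14.91 in control rats. Acat1, a thiolase that also acts in ketone body metabolism, had 3 of 4 metformin rats above every control on day 3, where it differed by 0.37 ± 0.14 (SE; adjusted p = 0.238), and overlapped on the other days. Hadh, a dehydrogenase for shorter chains, differed by 0.08 to 0.15 and the thiolase Acaa2 by 0.25 to 0.26 over the 3 days. The 5 genes of these steps had medians of 0.26, 0.25 and 0.19 on days 1, 3 and 14.

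Eci1, a mitochondrial isomerase that moves double bonds so that unsaturated fatty acids can be oxidised, gave the largest rise of the averaged effect among the members. Eci1 log2 levels on day 1 were 9.93, 9.91, 10.95 and 10.84 in metformin rats, against 9.65, 9.50, 9.26 and 9.68 in control rats. On day 3, Eci1 had log2 levels of 10.84, 9.18, 9.47 and 10.77 in metformin rats, against 8.97, 9.18, 9.50 and 9.34 in control rats. Day 14 gave Eci1 log2 levels of 9.34, 9.72, 8.85 and 8.95 in metformin rats, against 8.08, 8.39, 8.63 and 8.10 in control rats. On days 1 and 14 every metformin rat exceeded every control, and on day 3 rats 1 and 4 did while rats 2 and 3 lay among the controls. Single days gave 0.89 ± 0.31 (SE; adjusted p = 0.418), 0.82 ± 0.31 (SE; adjusted p = 0.263) and 0.92 ± 0.31 (SE; adjusted p = 0.117) on days 1, 3 and 14, none of which passed. Averaged over the 3 days Eci1 rose 1.83-fold (log2 change 0.87 ± 0.18 (SE; adjusted p = 0.0106)). Decr1, a reductase for the same kind of fatty acid, differed by 0.53, 0.40 and 0.33, and the isomerase Eci2 by 0.14, -0.12 and -0.15, with no call for either.

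Etfdh passes electrons from the electron transfer flavoprotein, whose subunits are Etfa and Etfb, to ubiquinone. Etfdh log2 levels on day 1 were 15.13, 15.07, 15.27 and 15.29 in metformin rats, against 14.85, 14.82, 14.91 and 14.60 in control rats. On day 3, Etfdh had log2 levels of 15.05, 15.08, 15.07 and 15.22 in metformin rats, against 14.83, 15.04, 14.96 and 14.97 in control rats. Day 14 gave Etfdh log2 levels of 15.13, 15.07, 14.72 and 14.76 in metformin rats, against 14.78, 14.82, 14.77 and 14.72 in control rats. The groups were apart on days 1 and 3, and on day 14 metformin rats 1 and 2 stood above every control while rats 3 and 4 did not. Averaged over the 3 days Etfdh rose 1.17-fold (log2 change 0.23 ± 0.05 (SE; adjusted p = 0.0172)). Etfa log2 levels on day 1 were 14.83, 15.18, 15.10 and 14.95 in metformin rats, against 15.06, 15.15, 15.12 and 14.83 in control rats. On day 3, Etfa had log2 levels of 15.39, 15.34, 15.10 and 15.23 in metformin rats, against 15.03, 15.25, 15.23 and 14.93 in control rats. Day 14 gave Etfa log2 levels of 15.37, 15.06, 15.13 and 15.40 in metformin rats, against 14.79, 14.77, 15.12 and 15.02 in control rats. Etfa overlapped the controls on day 1 and exceeded every control in 2 of 4 metformin rats on day 3 and in 3 of 4 on day 14, when it differed by 0.32 ± 0.11 (SE; adjusted p = 0.122). Etfb differed by -0.05, 0.10 and 0.12 on days 1, 3 and 14. Bdh1, which interconverts the 2 main ketone bodies, differed by 0.12, 0.20 and -0.09, without a call.

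None of the 4 members Ehhadh, Cyp4a1, Hsd17b4 and Pex11a, nor of the 3 other targets Fabp1, Vnn1 and Angptl4, was called in any comparison. Ehhadh, the bifunctional enzyme of peroxisomal oxidation, and Cyp4a1, the fatty acid omega hydroxylase, are strongly induced by PPARA agonists in rats. Ehhadh log2 levels on day 1 were 16.38, 16.28, 16.48 and 15.83 in metformin rats, against 16.60, 16.50, 16.65 and 16.37 in control rats. On day 3, Ehhadh had log2 levels of 17.03, 16.49, 15.75 and 16.53 in metformin rats, against 16.43, 16.60, 16.94 and 16.56 in control rats. Day 14 gave Ehhadh log2 levels of 16.55, 16.31, 16.46 and 16.63 in metformin rats, against 16.17, 16.26, 16.16 and 16.93 in control rats. Ehhadh overlapped the controls on all 3 days, with log2 changes of -0.29, -0.18 and 0.11 (adjusted p 0.825, 0.718 and 0.87). Cyp4a1 log2 levels on day 1 were 16.36, 16.59, 16.67 and 17.15 in metformin rats, against 16.53, 16.05, 16.04 and 16.80 in control rats. On day 3, Cyp4a1 had log2 levels of 16.18, 15.60, 16.70 and 16.23 in metformin rats, against 16.39, 16.29, 16.68 and 16.64 in control rats. Day 14 gave Cyp4a1 log2 levels of 15.64, 16.06, 15.37 and 14.92 in metformin rats, against 15.24, 16.21, 15.55 and 15.83 in control rats. Cyp4a1 overlapped as well, with 3 metformin rats below every control and 1 above every control on day 3. Its log2 changes were 0.33, -0.32 and -0.21 on days 1, 3 and 14 (adjusted p 0.841, 0.579 and 0.763). Hsd17b4, a second bifunctional enzyme of peroxisomes, differed by 0.05 to 0.10, and Pex11a, which promotes peroxisome division, by -0.26 to 0.15. The medians of these 4 genes were 0.12, -0.22 and 0.08.

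Fabp1, the liver fatty acid binding protein, carries fatty acids in the cytosol, and its promoter window shown above holds a repeat match. Fabp1 log2 levels on day 1 were 18.92, 18.78, 18.82 and 18.79 in metformin rats, against 18.85, 18.86, 18.86 and 19.04 in control rats. On day 3, Fabp1 had log2 levels of 18.86, 18.96, 18.95 and 18.87 in metformin rats, against 18.85, 19.01, 18.93 and 18.76 in control rats. Day 14 gave Fabp1 log2 levels of 18.74, 18.70, 18.87 and 18.94 in metformin rats, against 18.69, 18.57, 18.89 and 18.58 in control rats. Metformin rats had 3 of 4 values below every control on day 1, lay within the control range on day 3 and had 1 of 4 above every control on day 14. Fabp1 varied little, with log2 changes of -0.08 (95% interval -0.24 to 0.09), 0.02 (-0.14 to 0.19) and 0.13 (-0.04 to 0.29).

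Vnn1, the liver pantetheinase, and Angptl4, a secreted inhibitor of lipoprotein lipase, are PPARA targets that respond strongly to fasting. Vnn1 log2 levels on day 1 were 6.89, 6.97, 6.97 and 7.81 in metformin rats, against 7.06, 6.46, 6.42 and 6.47 in control rats. On day 3, Vnn1 had log2 levels of 7.89, 6.97, 6.64 and 7.76 in metformin rats, against 6.78, 6.65, 7.04 and 7.44 in control rats. Day 14 gave Vnn1 log2 levels of 6.84, 7.29, 5.95 and 5.79 in metformin rats, against 6.12, 6.11, 6.21 and 6.26 in control rats. On day 14 rats 1 and 2 lay above every control and rats 3 and 4 below every control, and on day 3 rats 1 and 4 were the high ones. Vnn1 differed by 0.56 ± 0.30 (SE; adjusted p = 0.688), 0.34 ± 0.30 (SE; adjusted p = 0.633) and 0.30 ± 0.30 (SE; adjusted p = 0.706) on days 1, 3 and 14. Angptl4 log2 levels on day 1 were 11.11, 11.74, 12.77 and 11.72 in metformin rats, against 10.40, 10.74, 11.05 and 11.74 in control rats. On day 3, Angptl4 had log2 levels of 13.20, 11.57, 10.70 and 12.12 in metformin rats, against 12.17, 12.57, 13.85 and 12.68 in control rats. Day 14 gave Angptl4 log2 levels of 12.44, 14.01, 11.73 and 11.48 in metformin rats, against 11.61, 12.38, 12.57 and 11.29 in control rats. Angptl4 had the largest standard error of the 34 members, and its groups overlapped on each day, with 3 metformin rats below every control on day 3. It differed by 0.85 ± 0.54 (SE; adjusted p = 0.776), -0.92 ± 0.54 (SE; adjusted p = 0.455) and 0.45 ± 0.54 (SE; adjusted p = 0.758) on days 1, 3 and 14.

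Averaged over the 3 days, 5 members rose, Eci1, Acot2, Crot, Etfdh and Hadhb, and 0 fell, while 3.23% of all genes were called, 2.79% as higher and 0.432% as lower. Of the 34 members, 29 lay above 0, with a median log2 change of 0.15, beside -0.01 over all genes. At an unadjusted p under 0.05, 17 members were higher and 0 lower, beside 2059 of the 19686 genes higher and 1072 lower. All 5 stayed called without any 1 of the 24 rats, with the highest adjusted p at 0.0496 for Hadhb. With every probe set of the table tested, Acot2, Crot and Eci1 were the 3 members called. With days 1 and 3 alone 0 members were called, with days 3 and 14 alone Eci1 and Hadhb were higher and Cpt1a lower, and with days 1 and 14 alone only Acot2 was called.

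Between days the effect differed in 3 members, Cpt1a, Ppara and Slc22a5, all lower on day 14 than on day 1, while 1.66% of all genes were called, 0.569% as higher and 1.09% as lower. In Cpt1a the log2 change was -1.67 on day 14, against 1.23 on day 1. For Ppara it was -0.44 on day 14, against 0.98 on day 1, and for Slc22a5 -0.38, against 0.95. Across the module the median difference was -0.20, beside 0.00 over all genes, with 10 members above 0. By contrast Eci1 differed by 0.03 ± 0.44 (SE; adjusted p = 0.987) between these days, and Hadhb by 0.10 ± 0.24 (SE; adjusted p = 0.912). Between day 3 and day 1 the test called 0 members and 0% of all genes, with 9 members lower and 0 higher at an unadjusted p under 0.05, and 2102 such genes in all. Between day 14 and day 3 it called 0 members and 0.00508% of all genes, with 2 members lower at an unadjusted p under 0.05, beside 1485 genes in both directions.

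**Figure D4:**
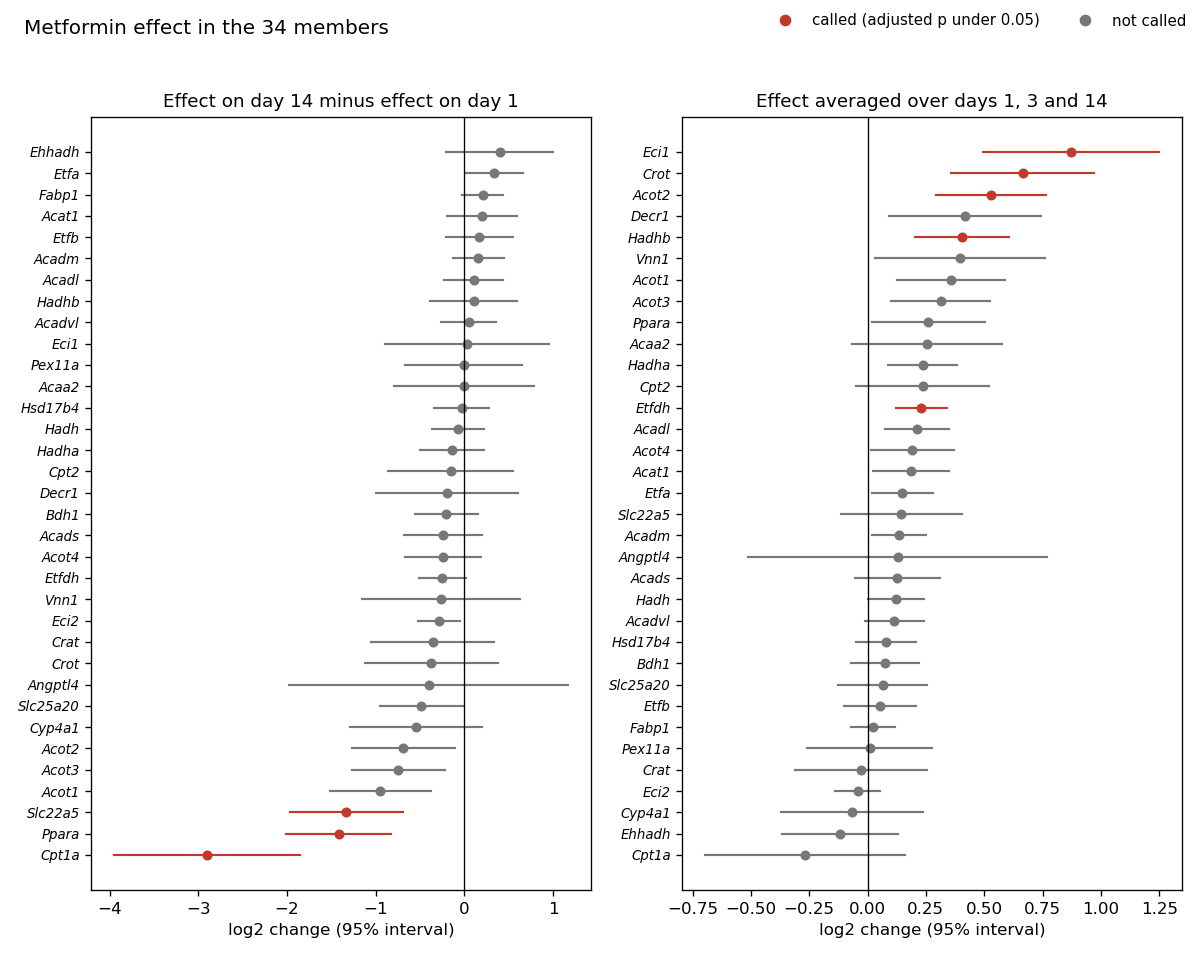
Log2 differences with 95% intervals (x axes) for the 34 members: the metformin effect on day 14 minus that on day 1 (left) and the effect averaged over days 1, 3 and 14 (right); red marks a call. Cpt1a (-2.90), Ppara (-1.42) and Slc22a5 (-1.33) are called on the left, and Eci1, Crot, Acot2, Hadhb and Etfdh on the right.

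Most members had lower means in control livers on day 14 than on the earlier days, but 1 passed the test against day 1 and 0 against day 3. On day 14 against day 1, 32 of 34 members had lower means, Angptl4 and Crot being the exceptions, with a median log2 difference of -0.28, beside 0.02 over all genes. Eci1 was the 1 member called, and it fell 2.33-fold, while 1.82% of all genes were called, 1.56% as lower. Its means were 8.30 ± 0.26 on day 14 and 9.52 ± 0.19 on day 1 (log2, SD, n = 4 each; log2 difference -1.22 ± 0.31 (SE; adjusted p = 0.0471)). The call was lost without any 1 of the 12 control rats or of metformin rats 1, 3 and 4 of day 14, with adjusted p between 0.0521 and 0.142. In 8 members all 4 control rats of day 14 lay below all 4 of day 1, where 4.12% of all genes were so placed, and 11 members were lower at an unadjusted p under 0.05, beside 1129 of the 19686 genes.

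Against day 3, 31 of 34 members had lower means in control livers on day 14, with a median of -0.35, beside 0.01 over all genes. No member was called (0.889% of all genes were), and 16 were lower at an unadjusted p under 0.05, beside 1943 genes in both directions. In 12 members all 4 rats of day 14 lay below all 4 of day 3, where 4.07% of all genes were so placed. Crat had the smallest p, with means of 6.98 ± 0.36 on day 14 and 7.94 ± 0.17 on day 3 (log2, SD, n = 4 each; log2 difference -0.96 ± 0.24 (SE; adjusted p = 0.0534)). Between control livers of day 3 and day 1, 0 members and 0% of all genes were called (927 genes at an unadjusted p under 0.05), and Angptl4 alone was apart (1.73% of all genes were, in that direction), higher on day 3 by 1.84 ± 0.54 (SE; adjusted p = 0.947). All 12 macrophage markers were also lower in control livers on day 14 than on day 3 (median -0.42, 0 called; sums 9810 to 25900 on day 14 and 18800 to 38800 on day 3), and 9 of 12 were lower on day 14 than on day 1 (median -0.11, 0 called; sums 18700 to 27500 on day 1). Of 10 stellate cell and fibroblast markers 7 were lower on day 14 than on day 3 (median -0.32) and 6 than on day 1 (median -0.05), with 0 called, and their sums were 8440 to 12000 on day 1, 9700 to 15400 on day 3 and 4830 to 10800 on day 14. The part of these markers in the result was not tested. Day, age and any batch that went with the day cannot be told apart in these comparisons. Each comparison of metformin with controls on a day rests on that day's control rats, so on day 14 the metformin rats are set against lower control levels: Eci1 averaged 9.22 ± 0.40 in metformin livers of day 14, against 8.30 ± 0.26 in their controls, and 9.52 ± 0.19 in controls of day 1.

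**Figure D5:**
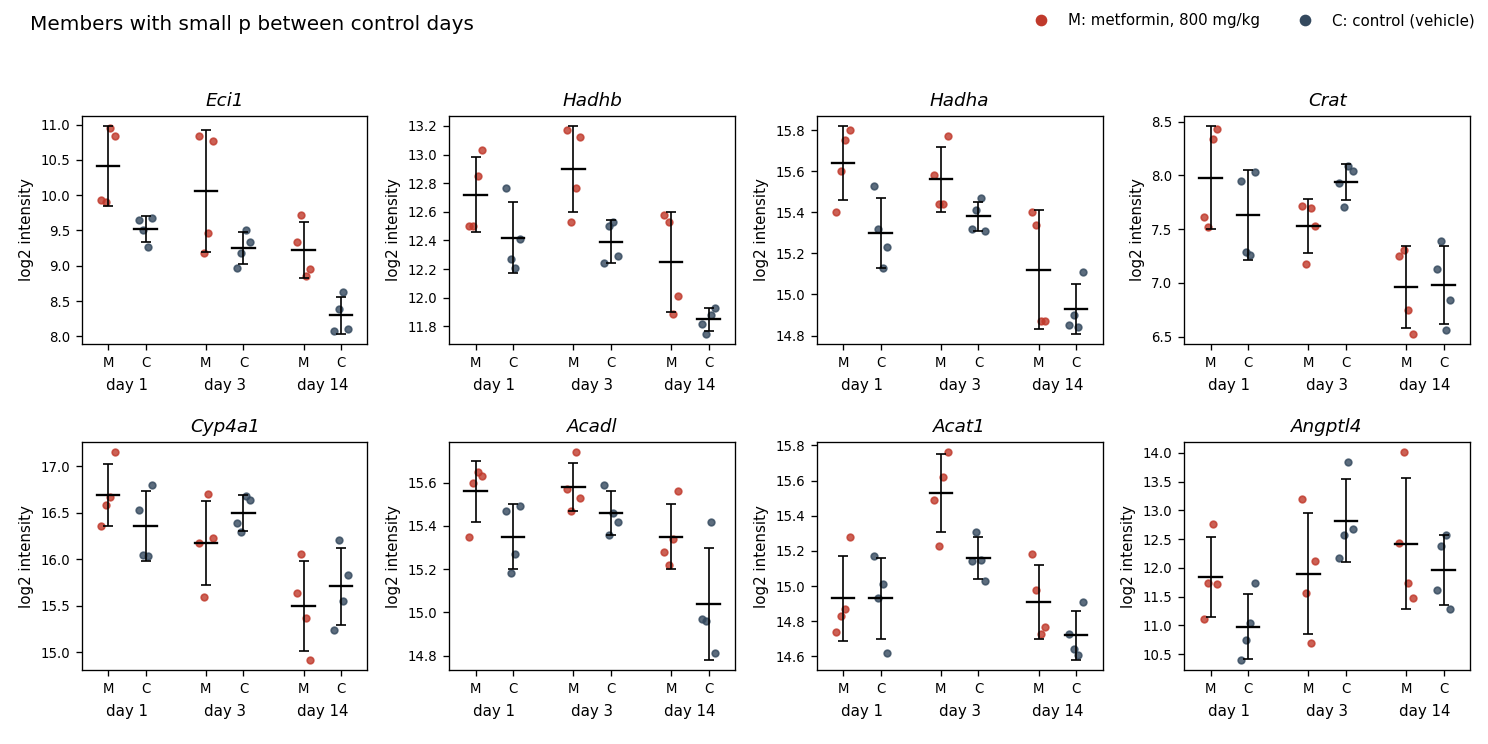
Log2 intensity (y axis) of 8 members with small p values between control days, by day and group (x axis, M metformin and C control). Points are rats, bars mean and SD of 4. Control livers of Eci1 average 9.52, 9.25 and 8.30 on days 1, 3 and 14.

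Other genes of the pathway, taken from lists chosen with earlier results known, were mostly not called. Of 32 further PPARA targets and peroxisomal genes tested, 0 were called on day 1, day 3 or day 14, where 0.0152%, 0.254% and 3.29% of all genes were. On these days 21, 19 and 20 of the 32 lay above the controls, with medians of 0.03, 0.07 and 0.06. On day 1 all 4 metformin rats lay above all 4 controls in Ech1 and Cyp4a2, where 3.46% of all genes were so placed. Means that day were 11.01 against 9.73 for Ech1 and 18.78 against 17.55 for Cyp4a2 (log2, metformin against control), and neither was called. Both overlapped the controls on days 3 and 14. Ech1 then had means of 10.05 against 9.58 and 9.1 against 9.15, and Cyp4a2 18.1 against 16.97 and 17.8 against 16.97. Creb3l3, a liver transcription factor of fasting genes that works with PPARA, was the only one of the 32 called for a change of effect. For that change, day 14 minus day 1, 1.66% of all genes were called, 1.09% as lower. Creb3l3 log2 levels on day 1 were 14.60, 14.87, 15.25 and 15.31 in metformin rats, against 14.45, 14.04, 14.03 and 14.60 in control rats. On day 3, Creb3l3 had log2 levels of 14.19, 13.99, 14.18 and 14.35 in metformin rats, against 14.16, 14.32, 14.43 and 14.45 in control rats. Day 14 gave Creb3l3 log2 levels of 13.69, 13.84, 13.52 and 13.38 in metformin rats, against 13.94, 14.29, 14.06 and 13.73 in control rats. Of its 4 metformin rats 3 exceeded every control on day 1, and 3 of 4 were below every control on day 14. The effect on day 14 minus that on day 1 was -1.13 ± 0.22 (SE; adjusted p = 0.0153), and the call was lost with every probe set tested (adjusted p = 0.0534). Plin2, a lipid droplet coat protein, differed by 0.37, 0.21 and 0.93 on days 1, 3 and 14 (adjusted p on day 14 0.0503). Plin2 passed on day 14 under 8 of 12 alternative settings (adjusted p down to 0.0315), and without control rat 4 of day 1, control rat 3 of day 3, control rats 2 or 3 of day 14 or metformin rat 1 of day 14, left out singly (down to 0.0238). Pdk4, which restrains pyruvate oxidation, differed by 0.50, -0.93 and -0.23, and the hormone Fgf21 by 0.52, 0.82 and 0.13. Amacr, a racemase for branched fatty acids, fell in the averaged effect by 0.36 on the log2 scale (adjusted p = 0.0321). That call was lost with every probe set tested, with days 1 and 3 or 1 and 14 alone, and without any 1 of 10 rats (adjusted p up to 0.0626 without 1 rat): control rat 2 of days 1, 3 or 14, control rat 1 of day 3, metformin rats 1 or 4 of day 1, 2 or 4 of day 3 and 2 or 3 of day 14.

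The ketone list held 9 tested enzymes and carriers, among them Bdh1 and Acat1, which are also members and are described above. Of these 9, 0 were called in any of the 10 comparisons, where at most 3.29% of all genes were. Among 25 partners and coregulators of PPARA, 1 was called on a single day, Lpin2, a phosphatidate phosphatase of the lipin family. It fell on day 14 (log2 change -1.18 ± 0.29 (SE; adjusted p = 0.0289)), where 3.29% of all genes were called, 1.22% as lower. Lpin2's call was lost without control rats 1, 2 or 4 or metformin rats 2, 3 or 4 of day 14, left out singly (adjusted p up to 0.124). Testing every probe set, or fitting only the arrays of day 14, also removed it (adjusted p up to 0.214). Pparg, a related receptor, fell in the averaged effect by 0.32 on the log2 scale (adjusted p = 0.0432). That call was lost with no filter, with every probe set, with any pair of days alone and without any 1 of 17 rats (adjusted p up to 0.0832 without 1 rat), and held without control rat 4 of day 1, 2 or 3 of day 3 or 3 of day 14, or metformin rat 3 of day 1, 1 of day 3 or 1 of day 14. Rxra, the partner receptor, differed by 0.21, 0.14 and -0.17 on days 1, 3 and 14, and the coactivator Ppargc1a by 0.45, -0.01 and 0.10, without a call. Of the 5 genes around malonyl-CoA, the inhibitor of CPT1, 3 rose on day 14 (Acaca, Fasn and Acly), where 2.07% of all genes were called higher. Acacb, the form placed at mitochondria, differed by -0.88, -0.65 and 0.64 on days 1, 3 and 14. With only the arrays of day 14 in the fit, Acaca (adjusted p = 0.0837) and Fasn (adjusted p = 0.0663) were not called and Acly was.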

How the data were processed

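Liver RNA of 24 rats in 6 groups was measured on 1 Affymetrix array each. Intensities on a linear scale were deposited, made by the authors with RMA, per the submitters' processing notes; RMA as a method corrects background, normalizes arrays by quantiles and summarises probes, and the software is not given in the sources used here. Because the highest intensity of an array was 982564 to 994415, beyond a 16-bit scanner's 65535, an unstated rescaling precedes the table, and folds hold on the deposited scale. Here log2 of each deposited intensity was taken. Each group had 5 animals per the labels, of which 4 have an array here. Precision is limited by that number of arrays. Nothing but the label "biological rep" says that the samples are separate rats, and p-values measure the spread between these samples.

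Of 68842 probe sets, 23446 had 1 gene symbol, 505 several and 44891 none. The probe set with the highest mean stood for each of 22093 genes, and 1182 genes, 1 of them a member, had more than 1. A gene was tested if 4 or more arrays exceeded 19.475 (log2 4.28), the 30th percentile, which 19686 genes did. The limma model (version 3.58.1, R 4.3.3, lmFit and eBayes, 3.51 prior degrees of freedom) had a mean for each group and used every array. The 10 comparisons were metformin minus control on each day, the mean of these 3 effects, their 3 differences between days and the 3 differences between control days. P-values are two-sided and adjusted over all genes tested by the Benjamini-Hochberg method, with a call at an adjusted p under 0.05. An exact permutation test of 4 rats against 4 cannot go below 0.0286, the p of every member whose groups do not overlap. The steps were tested on simulated data.

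The members and lists were chosen with earlier results of these data known, so no list was tested as a set. Members given rat by rat are those called in any comparison, the 6 with the smallest p on each day, and Ppara, Cpt1a, Cpt2, Ehhadh, Cyp4a1, Fabp1, Angptl4 and Vnn1. Of the pathway lists, genes called on a day or for a difference between days, and Pdk4, Fgf21, Plin2, Ppargc1a, Acacb and Rxra were named. Amacr and Pparg, called only in the averaged effect, and Ech1 and Cyp4a2, apart from the controls on day 1, were named after their values were seen. Same-numbered rats of a day did not deviate together (correlations between -0.054 and 0.094 over genes), and the numbers were not taken as pairs. Such correlations cannot exclude a pairing that acts on few genes. Alternatives changed the normalization, centring, scale, filter, choice of probe set, arrays in the fit, prior variance, array weights, the block and each rat in turn. Averages over 2 of the 3 days were added after seeing the data. Promoter sequences are RefSeq's on GRCr8. The identity of the thioesterase proteins was not analysed here.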

Additional observations from a re-analysis of the deposited data

Results flagged for a closer look

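The metformin effect differed between day 14 and day 1 by the test of the difference itself (limma, adjusted over all genes) in 3 members: by -2.90 for Cpt1a, -1.42 for Ppara and -1.33 for Slc22a5, on the log2 scale. In the pathway lists it differed for Creb3l3 (-1.13), Acaca (2.05), Fasn (4.14) and Acly (3.43). With every probe set tested, the calls of Ppara (adjusted p = 0.0534), Slc22a5 (adjusted p = 0.0906), Creb3l3 (adjusted p = 0.0534) and Acaca (adjusted p = 0.0864) were lost. That of Acaca was also lost without any 1 of 10 rats (adjusted p up to 0.0737): control rats 2 or 3 or metformin rats 2, 3 or 4 of day 1, control rats 1 or 4 or metformin rats 2, 3 or 4 of day 14.

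Within the groups of 4, 1 rat stood far from the rest in 6 of 126 groups of the 21 members given rat by rat, where chance gives about 1 in 20 groups. On the log2 scale these were Etfdh in metformin rats of day 3 (15.22, the others 15.05 to 15.08), Vnn1 in metformin rats of day 1 (7.81, the others 6.89 to 6.97), Acadl in metformin rats of day 1 (15.35, the others 15.60 to 15.65), Vnn1 in control rats of day 1 (7.06, the others 6.42 to 6.47), Fabp1 in control rats of day 1 (19.04, the others 18.85 to 18.86) and Ehhadh in control rats of day 14 (16.93, the others 16.16 to 16.26). Both Vnn1 groups of day 1 held such a rat.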

How the results depend on the processing

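Cpt1a's and Ppara's falls of effect between day 1 and day 14 and the 5 rises of the averaged effect kept their call without any 1 rat. Of the results on single genes and on summed marker levels, 2684 recomputed values kept direction and side of the threshold, 132 lost a call, 22 gained one, 12 reversed and 1, the hepatocyte marker level on day 1, moved. The causes of the changes below were not tested, beyond fewer arrays or more features in the fit. The replicate block, although the numbers showed no pairing of the rats over genes, left Cpt1a and Ppara as the 2 members called for day 14 minus day 1.

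Genes called on day 1 (3) became 0 with quantile normalization, cyclic loess, every probe set tested or the day's arrays alone, 1 with median centring or the replicate block, and 27 with array weights. On day 3 (50) they became 27 with every probe set, 0 with the day alone and 267 with array weights, and on day 14 (648) 225 with every probe set and 48 with the day alone. For the averaged effect (635) they became 282 with every probe set, 1016 with array weights, and 44, 1298 and 66 with days 1 and 3, 3 and 14, or 1 and 14 only. For day 3 minus day 1 (0) they became 4 with quantile normalization, 3 with cyclic loess, 1 with median centring, 4 with 16 added to the intensity, 4 with a filter at the 50th percentile, 1 with a trended robust prior and 13 with array weights. For day 14 minus day 1 (326) they became 63 with every probe set, 610 with array weights and 208 with the replicate block. For day 14 minus day 3 (1) they became 2 with cyclic loess, 3 with array weights and 0 with 16 added, the 50th percentile filter, every probe set, the trended prior or the replicate block. In controls, day 14 minus day 3 (175) became 320 with array weights.

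Members called became 4 with array weights on day 1 (Acot1, Acot2, Acot3 and Ppara). On day 14 they became 2 with cyclic loess (Cpt1a, and Etfa higher) and 0 with the day alone. For the averaged effect they became 3 with every probe set (Acot2, Crot and Eci1), and 0, 3 and 1 with days 1 and 3, 3 and 14, or 1 and 14 only. For day 14 minus day 1 they became 1 with every probe set (Cpt1a). In controls, day 14 minus day 1 became 0 with quantile normalization, median centring, 16 added, no filter, every probe set or the replicate block, and day 14 minus day 3 became 1 with the 50th percentile filter, 1 with the trended prior (Crat) and 2 with array weights (Acadl and Crat).

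Without 1 rat at a time, genes called ranged from 0 to 14 on day 1, 1 to 372 on day 3, 153 to 968 on day 14, 393 to 945 for the averaged effect, 0 to 11 for day 3 minus day 1, 137 to 547 for day 14 minus day 1, 0 to 6 for day 14 minus day 3, and in controls 243 to 373 for day 14 minus day 1, 94 to 229 for day 14 minus day 3 and 0 to 0 for day 3 minus day 1. Members called ranged from 0 to 3 on day 1, 0 to 2 on day 14, 5 to 7 for the averaged effect, 2 to 4 for day 14 minus day 1 and 0 to 1 in controls for day 14 minus either earlier day.

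Some values of single genes near 0 reversed without 1 rat. On day 3 these were Ehhadh (-0.372 to 0.057 over the rats left out; 0.057 without metformin rat 3), Fabp1 (-0.018 to 0.064; -0.018 without control rat 4) and Ppargc1a (-0.164 to 0.171; 0.033 and 0.008 without metformin rats 2 and 4, 0.009 and 0.171 without control rats 1 and 2). On day 14 they were Angptl4 (-0.079 to 0.764; -0.079 without metformin rat 2), Fgf21 (-0.037 to 0.285; -0.037 without metformin rat 2), Pdk4 (-0.508 to 0.004; 0.004 without control rat 3) and Ppargc1a (-0.094 to 0.31; -0.003 without metformin rat 3, -0.094 without control rat 2). Acly in the averaged effect was -0.135 with days 1 and 3 only.

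The share of calls over all genes that were higher was 86.6% for the averaged effect, and 70.5% with quantile normalization and 71.7% with cyclic loess. For day 14 minus day 1 it was 34.4%, and 47.6%, 50.4% and 44.6% with quantile normalization, cyclic loess and median centring. On day 3 it was 96% and 84.3% with cyclic loess, and in controls for day 14 minus day 3 it was 14.9% and 27.1% with median centring.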
